A study of Saccharomyces cerevisiae with 14 samples.

Results

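The TIR, DAN and CWP genes encode serine- and threonine-rich mannoproteins that are held in the yeast cell wall. Members were taken by name: TIR1 (YER011W), TIR2 (YOR010C), TIR3 (YIL011W), TIR4 (YOR009W), DAN1 (YJR150C), DAN4 (YJR151C), CWP1 (YKL096W) and CWP2 (YKL096W-A), 8 genes beside a table of 6040 ORFs. Of these 8 genes, 6 had a row in the table and 5 had a value on every slide. DAN1 and CWP2 had no row and were not analysed here, and CWP1 had gaps that are given with its values.

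Yeast exchanges part of its wall mannoproteins when oxygen runs out. CWP1 and CWP2 are major mannoproteins of aerobic cells, whereas the TIR and DAN genes are induced in anaerobic cells, and TIR1 and TIR2 are also known as cold-shock genes. The sterol-responsive activator Upc2 switches the TIR and DAN genes on, and Rox1 and Mot3, which act with the corepressor Tup1-Cyc8, hold them off in aerobic, heme-replete cells.

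Transcripts of EPY330, a Saccharomyces cerevisiae strain that makes artemisinic acid, were set against those of EPY338, in which the amorphadiene oxidase AMO was inactivated by a point mutation. EPY330 carried the high-copy plasmid pESC-Leu2d with ADS, AMO and the reductase CPR, and EPY338 the same plasmid with AMO-KO in place of AMO. EPY300, from which both were made, has his3Δ1, leu2Δ0, lys2Δ0 and ura3Δ0, and in both strains lys2Δ0 and ura3Δ0 were repaired. Both were derived from BY4742 (MATα) through EPY300, and both carried 2 copies of GAL1-driven tHMGR (a truncated HMG-CoA reductase), GAL1-driven upc2-1, GAL1-driven ERG20 and ERG9 under the MET3 promoter. The GAL1-driven genes were induced with galactose in medium supplemented with methionine, which represses the MET3 promoter, and RNA of 5 transformants of each strain was pooled in equal amounts at each of 24, 48 and 72 h. The hyperactive allele upc2-1, which belongs to the activator of the TIR and DAN genes, was thus carried by both EPY330 and EPY338. Carrying it in both does not make its expression equal, and its part in the strain ratios was not tested. The medium did not select for the plasmid, and RNA was taken from whole cultures, so fewer cells with a transcript and less of it per cell cannot be told apart.

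EPY330 cDNA (Alexa555) and EPY338 cDNA (Alexa647) were hybridised together on 14 slides, with 4 replicates (A to D) for the 24 h pools and 5 replicates (A to E) for each later time point. Each value is the log2 ratio of EPY330 over EPY338, so that values above 0 are higher in EPY330, and no level of either strain alone was available. Replicate slides repeated the hybridisation of 1 EPY330 pool and 1 EPY338 pool per time point, so their SD and the p-values over them measure technical spread and not the spread between cultures. The dyes were not swapped, so a dye effect of a gene and the strain difference cannot be told apart. The members belong to families with similar sequences, and whether a spot also bound transcripts of a close relative was not tested.

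Slides had values for 5466 to 5940 ORFs, with a median log2 ratio between -0.02 and 0.01 and an SD over ORFs between 0.467 and 0.876. The 72 h slides formed 2 sets over the ORFs that are not members: Pearson's r was 0.713 to 0.778 among replicates A, B and C, 0.785 between D and E, and 0.440 to 0.664 across the sets. With the 24 h slides, replicates D and E had r of 0.508 to 0.713 and replicates A to C of -0.000946 to 0.447. At 48 h, r was 0.816 to 0.857 among replicates C, D and E, 0.594 between A and B, and 0.364 to 0.616 across these. Neither the labels nor the study's methods named a batch behind the sets, and their part in the results was not tested. Results of the members that rest on them are given with and without them. For the genes of the lists this was not done gene by gene.

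At 24 h, 3 of the 6 members with values were called higher in EPY330, namely TIR2, TIR3 and TIR4. Calls at a time point are those of one-class SAM, a permutation test of the mean ratio against 0, at a false discovery rate (FDR) of at most 0.2%. Of all 5861 genes tested at 24 h, 11.4% were called higher and 5.32% lower in EPY330. The member median was 0.69, against -0.01 over all genes tested.

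TIR2, a putative wall mannoprotein, had log2 ratios of 1.35, 0.97, 1.51 and 1.14 on replicates A to D. Its mean of 1.24 ± 0.24 (SD, n = 4) is a 2.37-fold higher level in EPY330, and 97.4% of genes had a lower mean. TIR3, which is needed for anaerobic growth, had 0.59, 1.12, 1.01 and 1.02, with a mean of 0.94 ± 0.23 (1.91-fold, n = 4). Replicate A was the lowest for TIR3 and the other slides lay close together.

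TIR4, which is also needed for anaerobic growth, had log2 ratios of 0.62, 0.80, 0.84 and 0.85, with a mean of 0.78 ± 0.11 (1.72-fold, n = 4). This was the smallest SD among the 6 members at 24 h, yet the call of TIR4 was lost without replicate D and where gaps in the table were left unfilled, which each left 2 members called. DAN4 had 0.49, 0.58, 0.76 and 0.56, with a mean of 0.60 ± 0.12 (1.51-fold, n = 4), and was not called. All of its slides were above 0, and it was called at an FDR of 1% and in limma on the slides (adjusted p = 0.00250).

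TIR1, a wall mannoprotein needed for anaerobic growth, had log2 ratios of 0.57, -0.06, 0.69 and 0.26 at 24 h (mean 0.37 ± 0.34, n = 4) and was not called. CWP1 had 0.33, -0.57, 0.11 and 0.49 (mean 0.09 ± 0.47, n = 4) and was not called either. For both genes replicate B was the lowest slide and lay below 0. Shares of 74.7% and 57.0% of genes had a lower mean than TIR1 and CWP1.

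**Figure D1:**
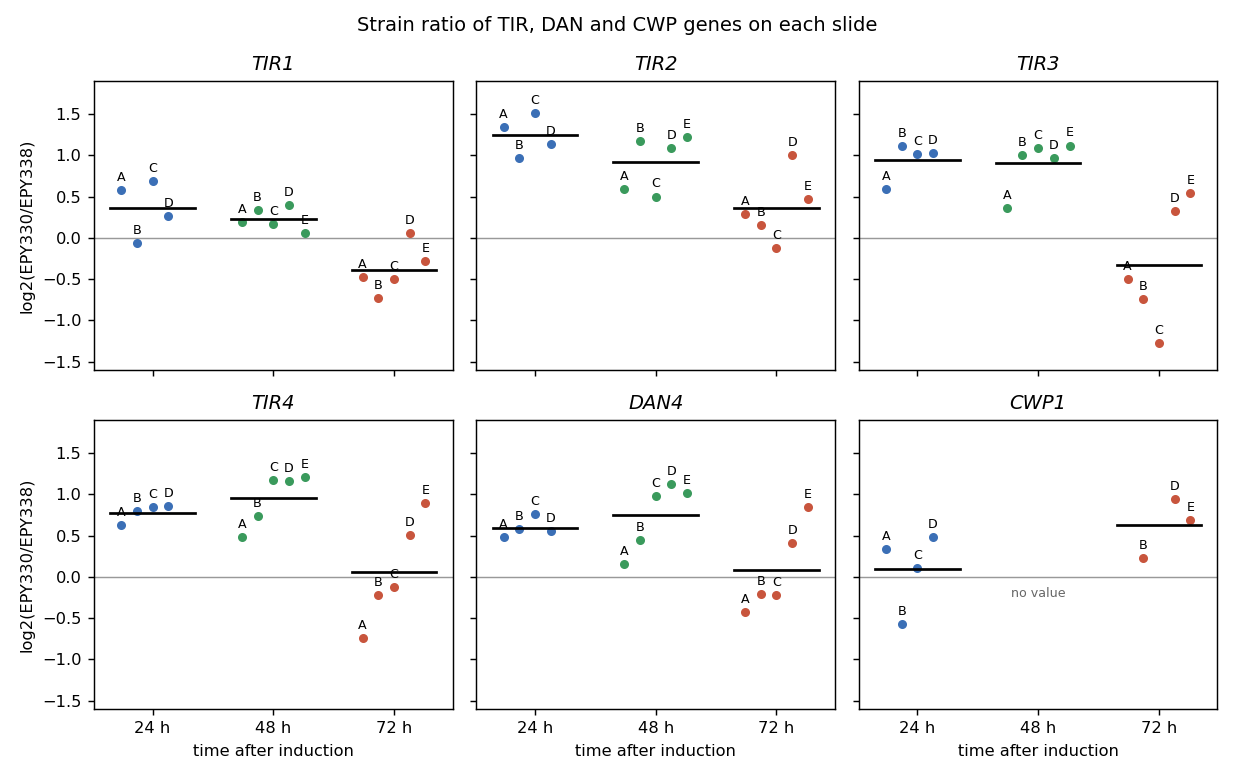
The log2 ratio of EPY330 over EPY338 (vertical axis) is plotted for each slide, marked by its replicate letter, at 24, 48 and 72 h (horizontal axis), with 1 panel per gene and bars for the means. At 72 h replicates D and E lie above A, B and C for TIR1, TIR2, TIR3, TIR4 and DAN4, and CWP1 has no value at 48 h.

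At 48 h the same 3 genes and DAN4 were called higher in EPY330, 4 of the 5 members with values. Among all 5721 genes tested, 12.6% were called higher and 10.2% lower. The member median was 0.91, against -0.02 over all genes tested.

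TIR2 had log2 ratios of 0.59, 1.18, 0.50, 1.08 and 1.23 on replicates A to E (mean 0.91 ± 0.34, 1.89-fold, n = 5). TIR3 had 0.37, 1.01, 1.09, 0.97 and 1.12 (mean 0.91 ± 0.31, 1.88-fold, n = 5). TIR4 had 0.48, 0.73, 1.18, 1.16 and 1.21 (mean 0.95 ± 0.33, 1.93-fold, n = 5). All slides of these 3 genes were above 0, with replicate A the lowest slide for TIR3 and TIR4 and the second lowest for TIR2. Their means differed by less than any of their SDs.

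DAN4 had 0.16, 0.45, 0.98, 1.12 and 1.01 at 48 h (mean 0.74 ± 0.42, 1.68-fold, n = 5), with replicates A and B below the other slides. TIR1 had 0.19, 0.34, 0.17, 0.40 and 0.06 (mean 0.23 ± 0.14, n = 5), above 0 on every slide but not called. Without replicates A and B the calls stayed at TIR2, TIR3, TIR4 and DAN4, with means of 0.94, 1.06, 1.18 and 1.04. Without replicate C only TIR2 was called, the call of DAN4 was also lost without D or E, and none of the members was called where gaps in the table were left unfilled, a setting under which 129 of all genes were called higher and 3 lower.

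**Figure D2:**
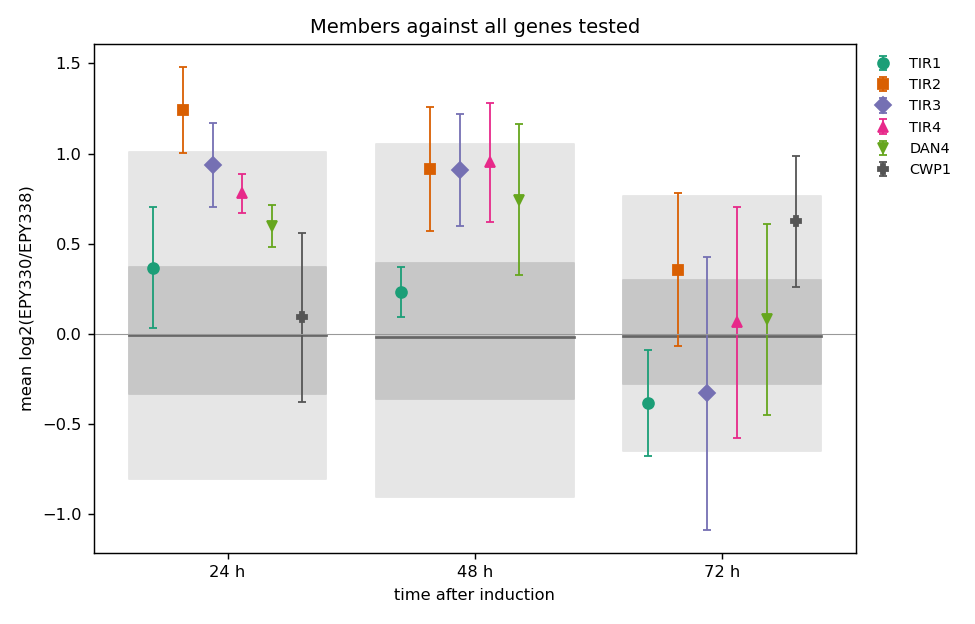
Points and bars give the mean and SD between slides of the log2 ratio of EPY330 over EPY338 (vertical axis) for each gene with values at 24, 48 and 72 h (horizontal axis). Light and dark bands span the middle 90% and middle 50% of all genes tested, and the line within them is their median. TIR2 lies above the light band at 24 h, and at 72 h the TIR genes and DAN4 lie within it.

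At 72 h none of the TIR genes and DAN4 was called by SAM, and CWP1 was called higher in EPY330. This is 1 of 6 members, with 12.6% of all 5945 genes tested called higher and 8.46% lower. The member median was 0.07, against -0.02 over all genes tested.

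TIR1 had log2 ratios of -0.48, -0.73, -0.50, 0.06 and -0.28 at 72 h (mean -0.39 ± 0.30, n = 5), the lowest mean of the members, and limma on the slides called it lower (adjusted p = 0.0304), but with the ORF-order trend removed its mean was -0.15. TIR3 had -0.50, -0.74, -1.28, 0.33 and 0.54 (mean -0.33 ± 0.76, n = 5). TIR4 had -0.74, -0.23, -0.12, 0.51 and 0.89 (mean 0.06 ± 0.64, n = 5). For TIR3 and TIR4 all of replicates A, B and C were below 0 and both D and E were above it, and their SDs were the largest of the members.

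DAN4 showed the same division, with -0.43, -0.21, -0.22, 0.42 and 0.84 (mean 0.08 ± 0.53, n = 5). TIR2 had 0.28, 0.15, -0.13, 1.004 and 0.47 (mean 0.36 ± 0.42, n = 5) and was below 0 on replicate C alone. Without replicates D and E the means were -0.57 for TIR1, 0.10 for TIR2, -0.84 for TIR3, -0.36 for TIR4 and -0.29 for DAN4. SAM then called TIR1 and TIR3 lower in EPY330.

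CWP1, a mannoprotein of the aerobic wall, had values on replicates B, D and E only, of 0.23, 0.95 and 0.69 (mean 0.62 ± 0.36, n = 3). The call rests on values filled in for replicates A and C from the 10 genes most like it, with which its mean was 0.54. It was lost where gaps were left unfilled, where a trend along the ORF order was removed, and without replicate A or C, and without B, D or E the gene had too few slides to be tested. CWP1 had no value at 48 h, so its course over time was not tested.

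Taking each time point as 1 value, TIR2 was the member called higher in EPY330 over the 3 time points, with a mean of 0.84 (95% confidence interval 0.37 to 1.31, limma adjusted p = 0.0358) and a positive mean at 3 of 3. The 3 time points come from the same transformants. Intervals and p-values over them therefore do not measure the spread between independent cultures. Of all 5652 genes tested, 11.5% were called higher and 9.85% lower. The mean was 0.60 for TIR4 (adjusted p = 0.0778), 0.51 for TIR3 (0.213), 0.47 for DAN4 (0.0891) and 0.07 for TIR1 (0.785). The call of TIR2 was lost without 72 h replicate D (adjusted p = 0.0671) or E (0.0572), and without 72 h replicate A TIR4 was called too (0.0376). Without D and E together the adjusted p of TIR2 was 0.121, and 0 of the 5336 genes then tested were called by limma. Without A, B and C, TIR2, TIR3, TIR4 and DAN4 were called, beside 1260 of all genes called higher and 1164 lower.

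The strain ratios of TIR1, TIR2 and TIR3 fell between 24 and 72 h, and those of TIR1, TIR3, TIR4 and DAN4 fell between 48 and 72 h. Differences between time points were tested in limma on all slides, with p-values adjusted over 5652 genes, and cover the 5 members with values at each time point. The 72 h minus 24 h and the 72 h minus 48 h differences share the 72 h slides.

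For 72 h minus 24 h, 3 of 5 members were called lower, where 9.16% of all genes tested were called lower and 5.17% higher. TIR3 changed by -1.27 (SE 0.30, 95% interval -1.90 to -0.64, adjusted p = 0.0140), TIR2 by -0.89 (SE 0.23, -1.36 to -0.41, 0.0199) and TIR1 by -0.75 (SE 0.19, -1.15 to -0.35, 0.0192). The slides of the 24 and 72 h groups did not overlap for TIR3, and overlapped for TIR1 and TIR2 only through replicate B at 24 h and replicate D at 72 h. The share of all genes without such overlap was not determined, so this only describes the slides. TIR4 changed by -0.72 (interval -1.28 to -0.16, adjusted p = 0.0764) and DAN4 by -0.52 (-1.05 to 0.02, 0.168), neither of them called. The member median was -0.75, against 0.01 over all genes tested.

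These calls depended on which 72 h slides were used. Without any of replicates A, B and C in turn, TIR3 alone was called (adjusted p of TIR1 0.0511 to 0.0594, of TIR2 0.0525 to 0.0582), and without E all 5 members were. The call of TIR3 was lost without 24 h replicate B (0.0571) and that of TIR2 without 24 h replicate D (0.0501). With the ORF-order trend removed the call of TIR1 was lost (-0.58, adjusted p = 0.0720). Without 72 h replicates D and E all 5 were called lower, from -0.88 for DAN4 (adjusted p = 0.0146) to -1.78 for TIR3 (0.000359). Without A, B and C none of the 5 was called in limma, and the differences were -0.48 for TIR1, -0.51 for TIR2, -0.50 for TIR3, -0.08 for TIR4 and 0.03 for DAN4 (adjusted p 0.667 to 0.976, unadjusted p 0.0666 to 0.910). Of all 5590 genes, 13 were then called lower and 2 higher.

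For 72 h minus 48 h, 4 of 5 members were called lower, where 16.3% of all genes tested were called lower and 13.9% higher. TIR3 changed by -1.24 (interval -1.84 to -0.65, adjusted p = 0.00548) and TIR4 by -0.89 (-1.42 to -0.36, 0.0151). DAN4 changed by -0.66 (-1.17 to -0.16, 0.0455) and TIR1 by -0.62 (-0.997 to -0.24, 0.0176). TIR2 changed by -0.56 (-1.01 to -0.11, adjusted p = 0.0561) and was not called, but it was without 48 h replicate A (0.0352) or C (0.0433) or 72 h replicate D (0.0167). The call of TIR1 was lost without 72 h replicate B (0.0544) and where the trend along the ORF order was removed, which gave -0.40 (0.139). That of DAN4 was lost without any of 24 h replicates A, B and D, 48 h replicates C, D and E, and 72 h replicates A, B and C, with adjusted p up to 0.125, and with the slides of 48 and 72 h alone (0.0777). Without 72 h replicate B, 2 members were called. Without 72 h replicates D and E all 5 members were called lower, and without A, B and C none was (adjusted p 0.375 to 0.856).

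Between 24 and 48 h the ratios differed by less than the slides could resolve. No member was called in limma for 48 h minus 24 h, none had an unadjusted p under 0.05, and 0.619% of all genes tested were called higher and 0.372% lower. The differences were -0.14 for TIR1 (95% interval -0.54 to 0.27), -0.33 for TIR2 (-0.81 to 0.15), -0.03 for TIR3 (-0.66 to 0.60), 0.17 for TIR4 (-0.39 to 0.73) and 0.15 for DAN4 (-0.39 to 0.68). Changes of up to these bounds are therefore not excluded by the slides.

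**Figure D3:**
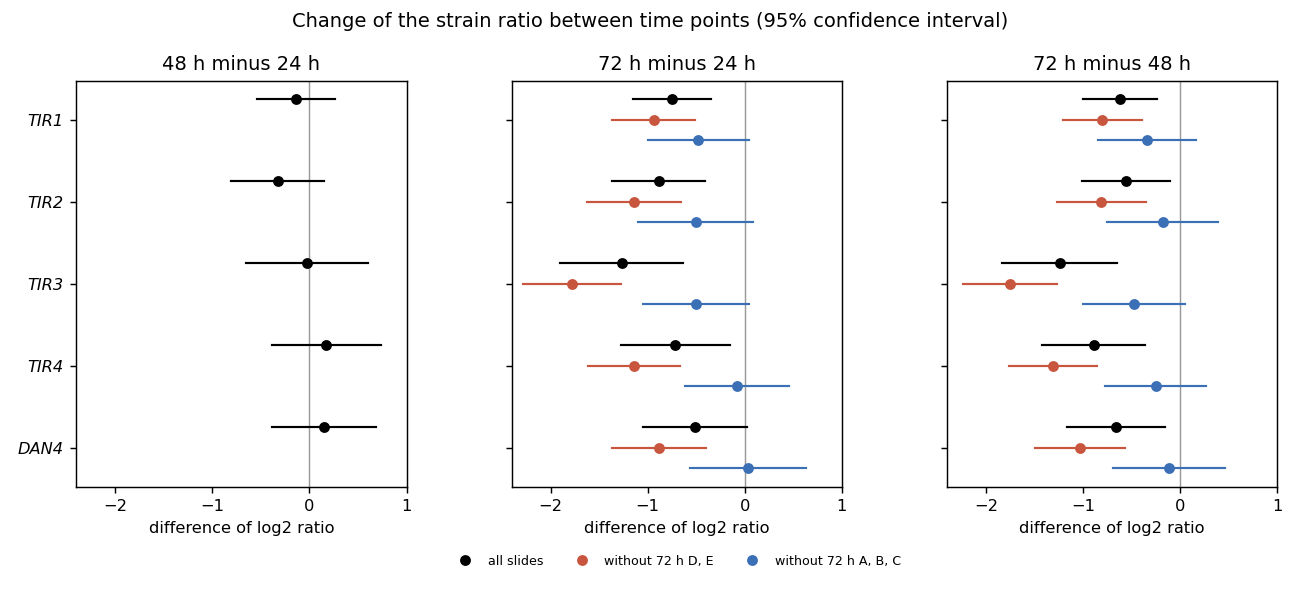
Points and bars give the difference of the log2 ratio of EPY330 over EPY338 between time points and its 95% confidence interval in limma (horizontal axis) for the 5 genes with values at each time point (vertical axis), with all slides and without either set of 72 h slides. Without replicates D and E the intervals against 72 h lie below 0 for all 5 genes, and without A, B and C each of them spans 0.

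The members differed among themselves in how closely they followed each other over the 14 slides, which share pools and slide sets, so the correlations are given as a description. TIR4 and DAN4 were the closest pair, with a Pearson's r of 0.968, and 0.954 after the time point means were removed. TIR3 had r of 0.878 with TIR4 and 0.860 with DAN4, and 0.756 and 0.795 after removal of the means. TIR1 was closest to TIR2, with r of 0.869 and 0.699. The lowest values were those of TIR1 with TIR4 (0.684, and 0.334 after removal) and with DAN4 (0.645) and of TIR2 with TIR4 (0.651) and with DAN4 (0.637). TIR4 and TIR2 are neighbours on their chromosome, as are DAN4 and DAN1, and CWP1 and CWP2.

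Over the same 14 slides the 3 ORFs most like each member by Pearson's r were taken among the ORFs that are not members. These r include the shared time points and slide sets and were not computed after removal of the time point means. They are likewise a description and not a measure of shared function. For TIR1 they were GLY1 (0.906), MSG5 (0.904) and DOT6 (0.895), and for TIR2 they were ASC1 (0.921), PRE5 (0.898) and RPL5 (0.877). For TIR3 they were SIM1 (0.986), which encodes a cell wall protein, RPL35A (0.982) and COQ5 (0.973). For TIR4 they were PST2 (0.957), RPS16B (0.955) and SSB2 (0.954), and for DAN4 they were ERG20 (0.944), GRX2 (0.935) and PST2 (0.933). ERG20 is also expressed from the GAL1 promoter in both strains.

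Calls among the regulators of the TIR and DAN genes were few and went in both directions, as they did over all genes. Of 8 measured regulators, 1 was called at 24 h (higher), 2 at 48 h (1 higher, 1 lower) and 3 at 72 h (2 higher, 1 lower), with medians of 0.05, 0.18 and 0.27. Of all genes tested, 11.4% were called higher and 5.32% lower at 24 h, 12.6% and 10.2% at 48 h, and 12.6% and 8.46% at 72 h. UPC2, whose spot also reads the upc2-1 transcript, was lower in EPY330 at 72 h, at -1.04 ± 0.30 (n = 4, 1 further slide filled in), against -0.32 ± 0.10 at 24 h (n = 3) and -0.31 ± 0.60 at 48 h (n = 3). Its paralogue ECM22 had log2 ratios of -0.76 ± 0.26, -0.93 ± 0.27 and -0.12 ± 0.23 at 24, 48 and 72 h, and was called lower at 48 h, a call lost without 48 h replicate C or D. The ratio of ECM22 rose by 0.81 between 48 and 72 h (adjusted p = 0.00463).

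The repressor ROX1 had log2 ratios of 0.73 ± 0.25, 0.81 ± 0.26 and 0.29 ± 0.60 at 24, 48 and 72 h, called higher at 24 and 48 h. These calls were lost without any of 24 h replicates A, B and D and without 48 h replicate C or D. MOT3 had 0.40 ± 0.37, 0.42 ± 0.18 and 0.72 ± 0.30 at 24, 48 and 72 h, and CYC8 had 0.40 ± 0.53, 0.45 ± 0.62 and 0.73 ± 0.41. Both were called higher at 72 h, and both calls were lost without any of replicates A, B and D, that of CYC8 also without C. TUP1 stayed within 0.28 of 0 at each time point, with means of -0.11, -0.28 and 0.24, and its ratio rose by 0.52 between 48 and 72 h (adjusted p = 0.0151). The heme-responsive HAP1 had means of 0.21, 0.06 and 0.50, and SUT1, a regulator of sterol uptake, of -0.40, 0.30 and -0.25, none of them called.

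The PAU genes, a large family of anaerobic seripauperins related to the TIR and DAN proteins, were measured at 23 of 24 members. At 24 h 3 were called higher and 1 lower in EPY330, at 48 h 4 higher, and at 72 h 1 higher and 1 lower, with medians of 0.31, 0.31 and -0.15. The shares over all genes tested were 11.4% higher and 5.32% lower at 24 h, 12.6% and 10.2% at 48 h, and 12.6% and 8.46% at 72 h. PAU4 had log2 ratios of 1.19 ± 0.72, 1.46 ± 0.54 and 0.67 ± 0.23 at these times, called higher at each, although the 72 h call was lost without replicate A, B or D. Its mean over the time points was 1.11 (limma adjusted p = 0.0249), a call lost without 72 h replicates D and E together. PAU4 was named for this mean and call, so they are not separate support.

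PAU19 had log2 ratios of 1.08 ± 0.56, 1.08 ± 0.22 and 0.40 ± 0.22 and was called higher at 24 and 48 h. PAU17 had 0.91 ± 0.25, 0.77 ± 0.30 and 0.30 ± 0.38 and was called at the same times, its 48 h call being lost without C, D or E. PAU3 differed in sign, at -0.98 ± 0.46, -0.35 ± 0.30 and -0.69 ± 0.44, and was called lower at 24 h, a call lost without A, B or D, and at 72 h, a call lost without A, B, C or D. Between time points, 4 of 23 PAU genes were called lower and none higher for 72 h minus 24 h (median -0.42), and 9 lower and none higher for 72 h minus 48 h (median -0.43). The shares over all genes tested were 9.16% lower and 5.17% higher for 72 h minus 24 h, and 16.3% and 13.9% for 72 h minus 48 h.

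Other hypoxic genes, 10 of 11 measured, had medians of 0.31, 0.33 and 0.28 at 24, 48 and 72 h, with 4, 3 and 2 called higher and 1 called lower at 72 h. Over all genes tested, 11.4%, 12.6% and 12.6% were called higher at these times, and 8.46% were called lower at 72 h. OLE1, the fatty acid desaturase that needs oxygen, had log2 ratios of 1.64 ± 0.37, 1.61 ± 0.32 and 0.84 ± 0.43, called higher at each time point, the 72 h call being lost without replicate D. ANB1, the hypoxic isoform of a translation factor, had 1.05 ± 0.44, 1.22 ± 0.43 and 0.29 ± 0.50 and was called at 24 and 48 h. AAC3, the anaerobic ADP/ATP carrier, had 0.33, 0.36 and 0.59, and its call at 72 h was lost without replicate A, B, C or D. HEM13 was the gene called lower at 72 h, with 0.14 ± 0.40, -0.10 ± 0.69 and -0.89 ± 0.23. The ratio of ANB1 fell by 0.93 between 48 and 72 h (adjusted p = 0.0144), and OLE1 fell by 0.77 (adjusted p = 0.0179), a call lost without 48 h replicate D or 72 h replicate A or B.

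Among 20 of 22 other wall proteins that were measured, 4 were called higher at 24 h, 4 higher and 3 lower at 48 h, and 2 higher and 9 lower at 72 h, with medians of 0.07, 0.11 and -0.42. Over all genes tested, 11.4%, 12.6% and 12.6% were called higher at 24, 48 and 72 h, and 5.32%, 10.2% and 8.46% lower. TIP1, a mannoprotein close to the TIR family, had log2 ratios of 0.45 ± 0.18, 1.10 ± 0.17 and 0.69 ± 0.14 and was called higher at 48 and 72 h. FIT2, a mannoprotein that holds iron-bearing siderophores, had 0.78 ± 0.18, 1.07 ± 0.31 and 0.26 ± 0.47 and was called higher at 24 and 48 h, the 24 h call being lost without replicate D. TIP1 was thus called higher in EPY330 at 72 h, where none of the TIR genes was, but whether it differed from them was not tested. Its own ratio changed by -0.40 between 48 and 72 h (limma adjusted p = 0.0482, up to 0.128 with 1 slide left out).

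In the opposite direction stood UTR2, which links chitin to glucan, with -0.83 ± 0.43, -0.90 ± 0.42 and -0.66 ± 0.27, and the wall protein ECM33, with -0.74 ± 0.14, -0.72 ± 0.30 and -0.60 ± 0.26. Both were called lower at 48 and 72 h. The 72 h calls were lost without any 1 of the slides, and the 48 h calls without replicate C, D or E, that of ECM33 also without A. Over the time points both were called lower (UTR2 at -0.80 with a limma adjusted p of 0.0246, ECM33 at -0.68 with 0.0267). With any 1 slide left out both calls were kept, at adjusted p of up to 0.0436 and 0.0498. Both were lost without 72 h replicates D and E together, where 0 of 5336 genes were called. Without 48 h replicates A and B together they were lost too, with 0 of 5243 genes called lower. UTR2 and ECM33 were named for their calls over the time points, which are therefore not separate support. AGA1, the anchor of the a-agglutinin, had -0.52, -1.06 and -0.43, and EGT2, which acts in daughter-cell separation, had 0.74, 0.39 and 0.65. AGA1 was called lower at 48 h and EGT2 higher at 72 h, calls that were lost without 48 h replicate C, D or E and without 72 h replicate A or D. PST1 and CRH1 had the lowest 72 h means of the list, at -1.67 ± 0.69 and -1.27 ± 0.45. Both were called lower at 72 h but not at 24 or 48 h. FIT3 had 0.30 ± 0.18, 0.76 ± 0.09 and -0.91 ± 0.35, called higher at 48 h and lower at 72 h. How the calls of PST1, CRH1 and FIT3 depend on single slides is not given here. For 72 h minus 24 h, 8 of the 20 wall proteins were called lower and none higher (median -0.44), and for 72 h minus 48 h 9 were called lower and none higher (median -0.54). The shares over all genes tested were 9.16% lower and 5.17% higher for the former, and 16.3% and 13.9% for the latter.

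Of 10 genes of wall synthesis and signalling, 1 was called higher at 24 h and at 48 h, and 2 were called higher and 4 lower at 72 h, with medians of -0.08, -0.15 and -0.51. Over all genes tested, 11.4%, 12.6% and 12.6% were called higher at 24, 48 and 72 h, and 8.46% were called lower at 72 h. CHS3, the main chitin synthase, had log2 ratios of 0.98 ± 0.34, 0.96 ± 0.15 and 0.95 ± 0.23 and was called higher at all 3 time points. Its mean over the time points was 0.96 (limma adjusted p = 0.0238), a call lost without 72 h replicates D and E together. CHS3 was named for this mean and call, so they are not separate support. CHS2, which makes the chitin of the septum, had 0.55, 0.63 and 0.74 and was called higher at 72 h. GFA1, the first enzyme towards the precursor of chitin, had -0.37, -0.47 and -1.01 ± 0.35 and was called lower at 72 h.

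**Figure D4:**
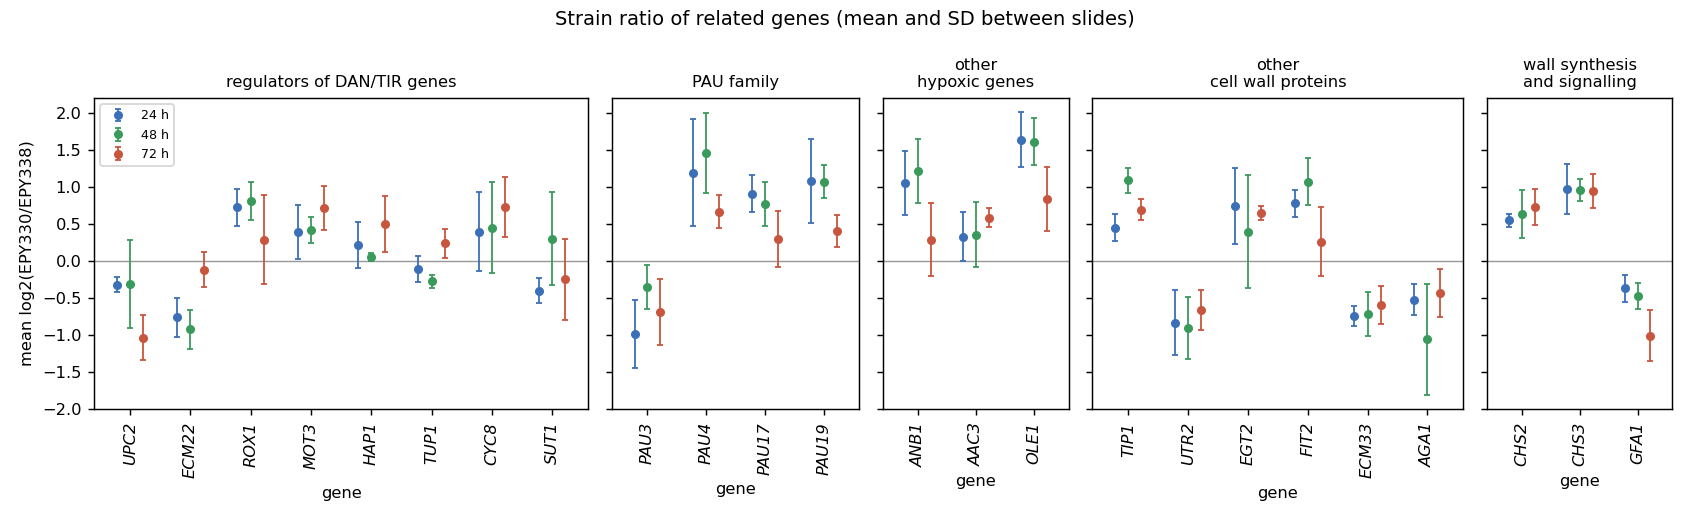
Points and bars give the mean and SD between slides of the log2 ratio of EPY330 over EPY338 (vertical axis) at 24, 48 and 72 h for regulators of the DAN and TIR genes, PAU genes, other hypoxic genes, other wall proteins and wall synthesis genes (horizontal axis, by gene). OLE1, PAU4 and CHS3 are above 0 at each time point, and UTR2, ECM33 and PAU3 are below it.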

How the data were processed

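The table deposited by the authors holds log2 ratios of EPY338 over EPY330, 1 per ORF and slide. To make it, the authors read GenePix Professional 4200A scans with GenePix Pro 6.1, discarded spots that were weak or artifacts, and applied a lowess normalization with BRB-ArrayTools 3.5.0. Without intensities in it, signal over background was not assessed, and precision is limited by the number of slides. The sign was turned here to log2(EPY330/EPY338). One-class SAM was run within each time point on all sign flips (16 with 4 slides, 32 with 5) for genes with values on at least 3 slides, at an FDR of at most 0.2%, with gaps filled from the 10 nearest genes of the time point. Means over the time points and differences between them were tested two-sided in limma 3.58.1 (R 4.3.3) without imputation, with Benjamini-Hochberg adjustment over all genes and calls at an adjusted p below 0.05. SAM and the figures were made in Python 3.11.15 with matplotlib 3.10.9, pandas 2.3.3 and numpy 2.4.6, and the procedures were tested on simulated data.

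Alternatives were unfilled gaps, complete genes, an FDR of 1%, limma on slides, slide medians, an ORF-order trend removed, medians of slides, leaving out each slide or time point, slides of only 2 time points and a replicate block. Leaving out sets of slides was added after seeing the data. The members and gene lists were chosen with earlier results of these data known. All measured regulators were named, and from each other list the 3 genes with the largest absolute mean over the time points and those called over the time points. HEM13, PST1, CRH1 and FIT3 were named in addition for their 72 h values. They are not in the figures or among the results flagged for a closer look. The annotation matched 5546 of the 6040 ORFs by locus tag. Sequences were not used here.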

Additional observations from a re-analysis of the deposited data

Results flagged for a closer look

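Among the members and the named genes of the lists, 86 groups of 4 or 5 slides were searched for a slide that stands apart by Dixon's test at 95%, which chance flags in about 1 of 20, and 4 had one. TIR3 at 48 h had its lowest slide in replicate A, at 0.37. AAC3 at 48 h had its highest in replicate B, at 1.11, HAP1 at 24 h in replicate C, at 0.68, and CHS2 at 72 h in replicate B, at 1.16.

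The strain ratio differed between time points in limma for the members and list genes that follow. For 72 h minus 24 h the differences were -0.75 for TIR1, -0.89 for TIR2, -1.27 for TIR3, -0.80 for OLE1 (adjusted p = 0.0373), 0.64 for ECM22 (0.0331) and -0.64 for GFA1 (0.0344). For 72 h minus 48 h they were -0.62 for TIR1, -1.24 for TIR3, -0.89 for TIR4, -0.66 for DAN4, -0.79 for PAU4 (adjusted p = 0.0458), -0.67 for PAU19 (0.0267), -0.40 for TIP1 (0.0482), -0.82 for FIT2 (0.0113), -0.93 for ANB1, -0.77 for OLE1, 0.81 for ECM22, 0.52 for TUP1 and -0.54 for GFA1 (0.0307).

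Leaving out 1 slide kept the calls of FIT2, ANB1, ECM22 and TUP1 for 72 h minus 48 h. Adjusted p for 72 h minus 24 h reached 0.110 for OLE1 (24 h replicate B, and above 0.05 also without 24 h C or D or 72 h A, B or C), 0.120 for ECM22 (24 h B, also D, and 72 h A, B or C) and 0.119 for GFA1 (24 h B, also A, C or D, and 72 h A or B). Against 48 h it reached 0.0977 for PAU4 (72 h replicate C, also 24 h A or D, 48 h B, D or E, and 72 h A, B or D), 0.0732 for PAU19 (48 h D, also 48 h E and 72 h A, C or E) and 0.0918 for GFA1 (72 h B, also 72 h A and 48 h C, D or E). TIP1 kept its call only without 48 h replicate A or B, and its adjusted p reached 0.128 without 48 h D. For these list genes, values without a whole set of 72 h slides are not given here. Over all 5590 genes tested without 72 h replicates A, B and C, 10 were called lower and 3 higher for 72 h minus 48 h. With all slides these counts were 921 and 788. For 72 h minus 24 h they were 13 and 2, against 518 and 292 with all slides.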

How the results depend on the processing

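Precision is limited by 4 or 5 technical slides of 1 pair of pools per time point. For single members, 314 of the values with 1 slide left out kept their direction and call, 28 lost a call, 6 gained one and 8 changed sign, and under the other alternatives 220 kept both, 21 lost a call, 17 gained one and 8 changed sign. The causes were not tested.

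Of members called, 3 at 24 h ranged from 2 to 3 with 1 slide left out, and were 2 with unfilled gaps and 4 at an FDR of 1%. At 48 h 4 became 0 with unfilled gaps and 1 to 4 with 1 slide left out (1 without replicate C). At 72 h 1 became 0 with unfilled gaps, with complete genes, with the ORF-order trend removed and without any 1 slide, and 2 without replicates D and E and in limma on slides. Over the time points 1 became 0 with medians of slides, without the 24 h time point, without 72 h replicates D and E and without 48 h replicates A and B, 4 without the 72 h time point and without 72 h replicates A, B and C, and 0 to 2 with 1 slide left out. Between 24 and 72 h 3 became 2 with the trend removed, 5 without D and E, 0 without A, B and C, and 1 to 5 with 1 slide left out. Between 48 and 72 h 4 became 3 with the trend removed (TIR1 lost) and with the slides of 2 time points alone (DAN4 lost), 0 without A, B and C and 2 to 5 with 1 slide left out. For 48 h minus 24 h the count was 0 throughout.

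The replicate letters were not taken as pairs, since deviations of same-letter slides correlated from -0.53 to 0.64 between 24 and 48 h, from -0.21 to 0.21 between 24 and 72 h and from -0.23 to 0.38 between 48 and 72 h. With the letter as a replicate block, 5 members were called lower for 72 h minus 24 h, 4 for 72 h minus 48 h and 0 for 48 h minus 24 h.

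Signs changed only for values that were not called. CWP1 at 24 h was -0.21 with the trend removed and -0.042 to 0.31 with 1 slide left out. At 72 h, without D and E, TIR4 was -0.36 and DAN4 -0.29, and with 1 slide left out they were -0.14 to 0.26 and -0.11 to 0.21. TIR1 over the time points was -0.077 without 24 h and -0.0096 without 48 h. DAN4 for 72 h minus 24 h was 0.032 without A, B and C. TIR3 for 48 h minus 24 h was 0.016 with the trend removed, 0.12 without 48 h A and B, and -0.14 to 0.11 with 1 slide left out.

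Over all genes, unfilled gaps gave 429 higher and 100 lower calls at 24 h (671 and 312 with gaps filled), 129 and 3 at 48 h (722 and 584) and 273 and 93 at 72 h (750 and 503). An FDR of 1% gave 943 and 573 at 24 h and 1132 and 943 at 72 h. Over the time points, medians of slides gave 179 and 79 (650 and 557 with means), and the slides of 2 time points alone gave 652 and 847 for 72 h minus 24 h (292 and 518 with all slides).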
